A study of Drosophila melanogaster with 3 samples.

Results

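Divergent promoters are stretches between 2 protein-coding genes that lie head to head, so that transcription starts outward on both strands. Of the 3206 optimal Bdp1 peaks on build dm6, 758 (23.6%, 95% exact Clopper-Pearson interval 22.2 to 25.2%) lay at such promoters. A peak was counted here when it overlapped the 100 bp on either side of a protein-coding 5' end that had the 5' end of another protein-coding gene, on the opposite strand, within 1000 bp upstream. Peaks that touched the same window at a tRNA, U6, U6atac, 7SK or RNaseMRP gene were left out. The rule used annotation alone and no peak signal. For comparison, 677 peaks lay at protein-coding 5' ends with no such partner (single promoters), 236 at the RNA polymerase III (Pol III) genes just named, and 1535 elsewhere.

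The peaks came from ChIP-seq of whole Drosophila melanogaster embryos collected over 0 to 24 h, males and females pooled, in 3 biological replicates that form 1 group. All embryos were of a transgenic line that makes CG9305, the gene of Bdp1, with green fluorescent protein (GFP) fused to its C-terminus, and the fusion protein was precipitated with an antibody against GFP. No second genotype, age or treatment was measured, and every tissue of the embryo is averaged in each value. The lists hold no read totals, so the depth behind a peak is unknown, and intervals cover counting error only.

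Together with Brf and a TATA-binding protein, Bdp1 makes up TFIIIB, which recruits Pol III to its promoters. Protein-coding genes are transcribed by RNA polymerase II (Pol II) with initiation factors of its own. In the compact fly genome many housekeeping genes share a short promoter region with a neighbour, and such regions often hold the DNA replication-related element (DRE) and core motif 1, elements of broadly active fly promoters.

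The stretches between the 2 genes are shown for 7 pairs with strong peaks, to let the reader see the letters there. A peak can extend past its stretch. Each is the plus strand of dm6, 5' to 3', from RefSeq's release of that assembly, and runs between the outermost annotated 5' ends of both genes, so the gene named first reads leftward and the second rightward. Capitals mark any match, on either strand, to DRE (TATCGATA), core motif 1 (GGTCACACT), the E-box (CAGCTG) or a TATA box (TATAAA). The intervals are chr2L:13373891-13374018 for Bdp1/CG6565, chr3L:5139396-5139618 for Tcs5/CHMP2B, chr3R:15229409-15229664 for Art3/mRpS10, chr3R:8650797-8651083 for Mkk4/SLIRP2, chr3R:31616161-31616302 for Mnat9/CG1792, chr3L:9426759-9427009 for Atat/Shc and chr3R:25247515-25247657 for RpS27/Nup37.
Bdp1/CG6565: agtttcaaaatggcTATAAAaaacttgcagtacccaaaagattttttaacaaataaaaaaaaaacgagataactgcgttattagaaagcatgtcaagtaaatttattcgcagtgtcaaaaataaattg
Tcs5/CHMP2B: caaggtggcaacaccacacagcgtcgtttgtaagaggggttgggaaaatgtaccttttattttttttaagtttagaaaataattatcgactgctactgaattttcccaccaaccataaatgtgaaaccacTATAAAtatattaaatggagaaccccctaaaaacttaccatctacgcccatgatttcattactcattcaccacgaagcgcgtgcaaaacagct
Art3/mRpS10: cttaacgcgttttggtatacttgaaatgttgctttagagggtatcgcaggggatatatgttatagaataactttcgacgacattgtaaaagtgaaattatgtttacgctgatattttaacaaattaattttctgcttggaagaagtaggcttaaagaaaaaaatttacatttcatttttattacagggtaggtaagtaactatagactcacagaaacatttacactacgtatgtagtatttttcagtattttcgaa
Mkk4/SLIRP2: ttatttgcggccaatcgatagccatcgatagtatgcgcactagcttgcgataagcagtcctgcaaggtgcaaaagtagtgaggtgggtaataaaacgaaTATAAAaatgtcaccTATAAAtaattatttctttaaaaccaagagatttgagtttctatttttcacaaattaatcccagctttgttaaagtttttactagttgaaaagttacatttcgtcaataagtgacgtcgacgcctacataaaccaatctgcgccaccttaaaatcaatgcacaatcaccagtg
Mnat9/CG1792: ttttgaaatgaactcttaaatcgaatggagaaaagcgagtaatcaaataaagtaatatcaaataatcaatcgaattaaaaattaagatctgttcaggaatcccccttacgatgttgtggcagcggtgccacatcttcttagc
Atat/Shc: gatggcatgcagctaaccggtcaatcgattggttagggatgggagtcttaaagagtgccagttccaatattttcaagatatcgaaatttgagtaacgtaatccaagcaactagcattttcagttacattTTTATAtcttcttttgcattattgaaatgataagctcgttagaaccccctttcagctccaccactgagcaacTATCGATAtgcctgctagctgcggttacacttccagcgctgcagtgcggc
RpS27/Nup37: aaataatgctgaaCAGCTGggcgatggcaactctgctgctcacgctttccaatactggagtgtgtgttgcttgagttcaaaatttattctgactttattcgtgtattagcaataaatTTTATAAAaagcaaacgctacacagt

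In the Bdp1/CG6565 stretch the summit of the optimal peak fell on base 102 of 128, and in Tcs5/CHMP2B on base 121 of 223. In Art3/mRpS10 it fell on base 112 of 256, in Mkk4/SLIRP2 on base 157 of 287 and in Atat/Shc on base 121 of 251. In Mnat9/CG1792 the summit was at base 1 of 142 and in RpS27/Nup37 at base 6 of 143, and other annotated 5' ends of the left-hand gene lie further left. Of the 7 stretches as printed, only Atat/Shc held a DRE and only RpS27/Nup37 an E-box of these letters, while core motif 1 was found in none of the 7. Within 150 bp of the summit, which can reach past the stretch, Tcs5/CHMP2B and Mnat9/CG1792 also had an E-box.

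The 12 member peaks of highest mean rank reached genes of many functions. Signal is given as relative signal, the value of the highest peak that contains the summit in a replicate's relaxed list, divided by the median of that value over all optimal peaks in the same replicate. The highest lay at Ugalt, a transporter of UDP-galactose into the Golgi, which stands head to head with eIF2Bbeta, a subunit of the exchange factor of translation initiation factor eIF2. Its relative signal was 8.07, 11.5 and 9.68 in replicates 1, 2 and 3, a mean of 9.76 ± 1.72 (SD, n = 3). This peak covered the 5' end of Ugalt only, 826 bp from that of eIF2Bbeta. Between Chro, a chromatin protein of polytene interbands and the mitotic spindle, and Ssl1, a subunit of the Pol II factor TFIIH, the values were 8.92, 8.74 and 7.00. At PNPase, an exoribonuclease of mitochondria, with its neighbour Gprk2, a kinase of G-protein-coupled receptors, they were 7.10, 8.56 and 7.29. These 3 pairs stood above the other 9 in mean value.

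The fourth was the promoter of Bdp1 itself with CG6565, at 6.32, 6.70 and 6.80 (mean 6.61 ± 0.251). The line carries a tagged copy of this gene, and whether that copy adds to the reads mapped there was not tested. Tcs5, a kinase of the KEOPS complex that modifies tRNA, and CHMP2B, a subunit of the membrane-sorting complex ESCRT-III, shared a peak of 6.46, 6.19 and 7.11. The methyltransferase gene Art3 and mRpS10, of the small subunit of the mitochondrial ribosome, shared one of 6.43, 7.02 and 5.34. The peak of mRpS23 and CenG1A had 6.31, 6.53 and 5.85 and covered the CenG1A side alone. In these 7 pairs every replicate value was above 5, that is, more than 5 times the median optimal peak.

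The remaining 5 of the 12 were at Pex11ab/CG8320 (6.31 ± 0.854), Fbw5/CG9147 (6.23 ± 0.130), mRpL41/CG8079 (6.11 ± 0.969), Pdrg1/Pal1 (5.44 ± 0.623) and Mkk4/SLIRP2 (4.71 ± 0.405), each mean ± SD over the 3 replicates. Pex11ab acts in peroxisome division, Fbw5 is an F-box protein, mRpL41 belongs to the large subunit of the mitochondrial ribosome and Mkk4 is a kinase upstream of JNK. The nearest Pol III gene to any of the 12 was a tyrosine tRNA gene 8160 bp from the Mkk4/SLIRP2 summit. Of the 12, 4 peaks reached a 5' end of 1 gene of the pair only, namely Ugalt, PNPase, CenG1A and mRpL41. Among the other sequences shown, the relative signal of Mnat9/CG1792 was 4.04, 5.20 and 4.61, that of Atat, a tubulin acetyltransferase, with Shc, an adaptor of receptor kinases, 3.65, 5.68 and 4.56, and that of RpS27/Nup37 3.10, 4.88 and 4.55. In these 3 pairs replicate 1 was the lowest.

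**Figure D1:**
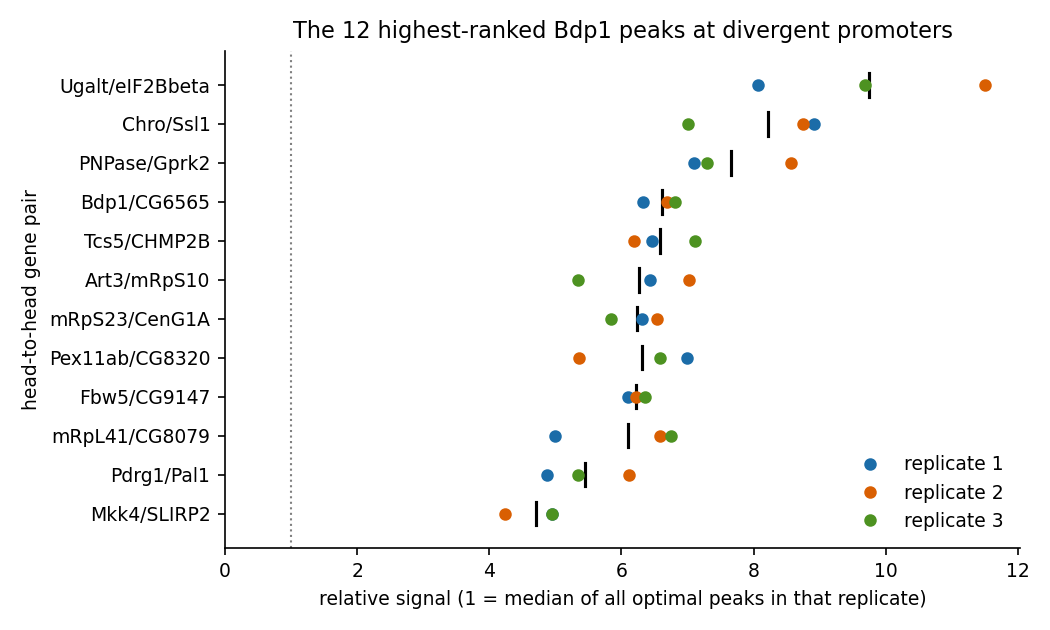
Relative signal of the 12 highest-ranked divergent-promoter peaks (x axis, no unit; the dotted line at 1 is the median of all optimal peaks), with 1 point per replicate and a bar at the mean, for each head-to-head pair (y axis). Ugalt/eIF2Bbeta is highest at a mean of 9.76 and Mkk4/SLIRP2 lowest at 4.71, and all points lie above 4.

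At the other end, the 3 members of lowest pooled signal were at CtsB/amrt, Galk/CG5068 and Nf-YA/Srg3. CtsB encodes the protease cathepsin B, Galk a galactokinase and Nf-YA a subunit of a CCAAT-binding factor. The relative signal at CtsB/amrt was 0.541, 0.477 and 0.618, and at Nf-YA/Srg3 it was 0.556, 0.597 and 0.930. At Galk/CG5068 it was 0.483 in replicate 1 and 0.720 in replicate 3, and replicate 2 had no peak over the summit. In all, 52 of the 758 members lacked a value in at least 1 replicate.

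As a class, divergent-promoter peaks were of middling strength. Their median relative signal was 1.03, 0.894 and 1.10 in the 3 replicates (mean 1.01 ± 0.105), against 0.907, 0.939 and 0.988 at single promoters (mean 0.945 ± 0.0405) and 8.14, 7.92 and 6.51 at Pol III genes. By the pooled signal their median rank was 1634.5 of 3206 and their best rank 98. The strongest 100 peaks held 1 member, 1 single-promoter peak and 88 Pol III peaks. Within replicates, the median log2 signal of divergent-promoter peaks minus that of single-promoter peaks was 0.19, -0.07 and 0.15. The mean difference of 0.09 ± 0.14 (SD, n = 3) was smaller than its spread and replicate 2 went the other way (exact two-sided sign-flip permutation test, p = 0.5). With 3 replicates that test cannot go below 0.25. Without replicate 2 the mean difference was 0.17.

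Replicates shared the stronger members. Of the 758, 427 (56.3%, interval 52.7 to 59.9%) overlapped 1 of the 3206 strongest peaks in each of the 3 replicates, beside 340 of 677 (50.2%, 46.4 to 54.1%) at single promoters and 230 of 236 (97.5%) at Pol III genes. Among the 151 members of highest rank the share was 98.7%, and among the 152 of lowest rank 13.2%. That rank comes from the pooled signal of the same 3 replicates, so this contrast is in large part fixed by construction. Replicate 2 placed fewer of its 3206 strongest peaks at divergent promoters (610) than replicate 1 (719) or replicate 3 (847). Counts at Pol III genes were 248, 237 and 237.

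Genes with a head-to-head neighbour carried Bdp1 more often than other protein-coding genes. With peaks at Pol III genes set aside, an optimal peak reached a 5' end of 1310 of 5052 divergent genes (25.9%) and of 589 of 8916 others (6.61%). Over all 13968 protein-coding genes the share was 13.6%. Of 3585 genes that were not divergent but had the 3' end of a same-strand neighbour within 1000 bp upstream (compact tandem genes), 295 (8.23%) had a peak. In the 3206 strongest peaks of each replicate, divergent genes stood at 25.4, 20.2 and 28.7%, compact tandem genes at 8.12, 7.70 and 9.54%, and all genes without a divergent neighbour at 6.19, 6.44 and 7.26%. The divergent shares did not overlap those of either other group.

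The difference between divergent and other genes was 18.1 ± 3.97 percentage points, and that between divergent and compact tandem genes 16.3 ± 3.45 (mean ± SD, n = 3). Both were positive in 3 of 3 replicates and several times larger than their spread (exact two-sided sign-flip permutation test, p = 0.25, the smallest possible). A peak that lies between 2 genes counts for both, which single promoters cannot gain from. When the summit itself had to fall within 100 bp of the 5' end, the shares fell to 11.3% ± 2.13 for divergent and 3.14% ± 0.847 for other genes, and the difference to 8.16 ± 1.45 percentage points, or 6.67 ± 0.951 against compact tandem genes. With the 1603 strongest peaks the differences were 10.9 ± 2.55 and 10.1 ± 2.41. Among genes with 1 annotated 5' end, an optimal peak reached 22.8% of 3455 divergent genes, 5.27% of 2734 compact tandem genes and 4.24% of 6814 others.

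**Figure D2:**
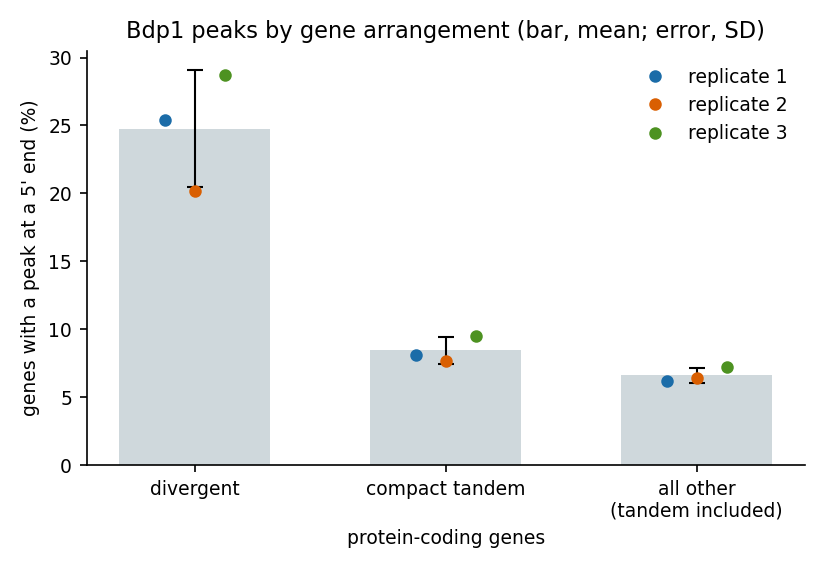
Share of genes reached at a 5' end (y axis, percent) by the 3206 strongest peaks of each replicate, for divergent genes, compact tandem genes and all genes that are not divergent (x axis). Bars are means, error bars SD and points replicates; divergent genes lie between 20.2 and 28.7%, and both other groups lie below 10%.

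The distance between the 5' ends went with the share of pairs that carried a peak. The 5052 divergent genes form 2667 pairs, of which 788 (29.5%) had an optimal peak at a 5' end of the pair. Pairs whose nearest 5' ends were 201 to 300 bp apart had one most often, in 237 of 542 (43.7%, interval 39.5 to 48.0%). At 1 to 100 bp it was 25.9%, at 101 to 200 bp 27.5%, at 301 to 500 bp 31.5%, at 501 to 700 bp 22.4% and at 701 to 1000 bp 16.5%. In the replicates the class of 201 to 300 bp stood at 42.8, 30.4 and 45.2%, and that of 301 to 500 bp at 32.5, 24.1 and 34.9%, so 201 to 300 bp was the highest class in each replicate. No test across these classes was run.

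Pairs are counted at either end, which a peak between close 5' ends reaches more easily. Single 5' ends were counted as well, but a peak that reaches both 5' ends counts for each. This count therefore also depends on distance by construction, and it does not correct the first. Of divergent 5' ends with the nearest partner at 201 to 300 bp, 39.6% had an optimal peak. At 1 to 100, 101 to 200 and 301 to 500 bp it was 22.7, 26.9 and 24.7%. At 501 to 700 bp it was 12.1% and at 701 to 1000 bp 8.99%, and 5' ends that were not divergent stood at 5.98%. Members between 5' ends 201 to 300 bp apart had a median relative signal of 1.27, 0.910 and 1.28, and those at 101 to 200 bp of 0.776, 0.845 and 1.04. The first class was the highest of the 6 in replicates 1 and 3. In replicate 2 the classes of 1 to 100 bp (0.982) and 701 to 1000 bp (0.939) stood above it.

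**Figure D3:**
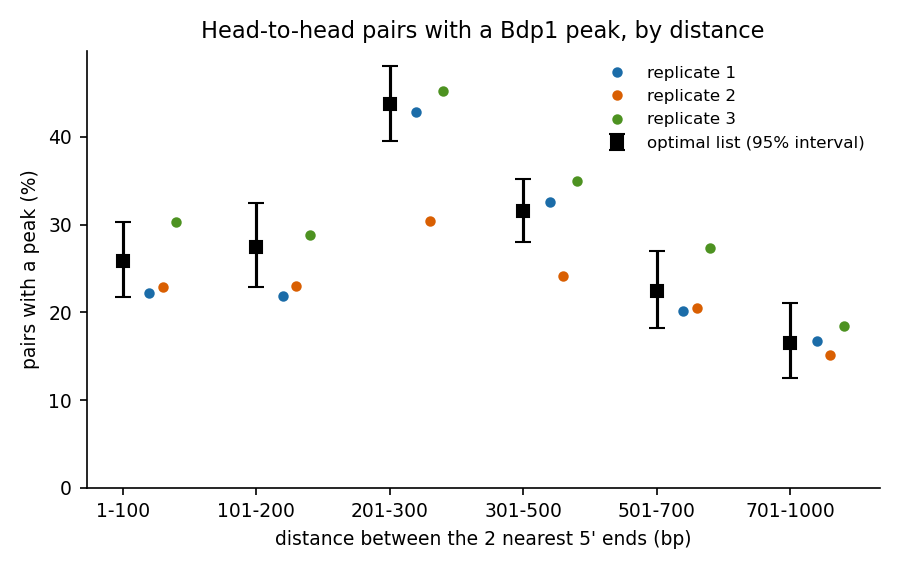
Share of head-to-head pairs with a peak at a 5' end (y axis, percent) by the distance between their nearest 5' ends (x axis, bp). Squares are the optimal list with 95% exact intervals and points are the strongest peaks of each replicate; the class of 201 to 300 bp is highest at 43.7% and that of 701 to 1000 bp lowest at 16.5%.

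A single peak usually reached both genes, that is, it overlapped the 100 bp on either side of a 5' end of each. Such a peak need not cover the 5' ends themselves. Of the 788 pairs, 539 had 1 peak that reached both genes, 238 had a peak at 1 gene only and 11 had separate peaks. Peaks counted as separate can overlap in part. Of the 758 members, 491 (64.8%) reached both genes of their pair, and 31 reached 3 or more divergent genes. This count depends on distance by construction, since 663 of the 758 peaks were 396 bp wide. The share of reached pairs under a shared peak was 90.1% at 1 to 100 bp, 88.6% at 201 to 300 bp, 61.0% at 301 to 500 bp and 8.64% at 501 to 700 bp, and at 701 to 1000 bp 0 of 51 pairs shared one.

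The 4 highest of the pairs with separate peaks show how unequal the sides could be. At Fur1/Vps33B, a furin protease and a membrane-tethering protein, the relative signal was 3.89 ± 0.476 at Fur1 and 2.24 ± 1.21 at Vps33B. At slv and sut1, both sugar transporters, it was 2.22 ± 0.785 and 0.548 ± 0.166. At l(1)G0320 and RpS28b, a ribosomal protein, the values were 1.20 ± 0.129 and 1.56 ± 0.350, and at Ac78C, an adenylate cyclase, and chb, a microtubule-binding protein, 1.45 ± 0.296 and 0.708 ± 0.314 (each mean ± SD, n = 3). The 2 peaks of Fur1/Vps33B overlap in part, so their signals are not separate measurements. The same holds for most of the pairs with separate peaks below these 4, some of which were counted with the same 2 peaks.

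Summits lay mostly in the stretch between the genes. In the 3 replicates 91.1, 81.1 and 88.5% of divergent-promoter summits (86.9% ± 5.17) fell between the 5' ends of the nearest pair. Within 50 bp of the midpoint lay 44.6, 39.2 and 41.0%, and the median distance from it was 57.5, 79.75 and 64.5 bp. Replicate 2 had the most scattered summits on each of these measures. For pairs at least 200 bp apart, 39.6% ± 6.50 of summits were in the middle of 3 equal parts of the interval, 51.7% ± 3.03 in the other parts together and 8.71% ± 5.14 outside it. Each of these shares rests on which 5' ends are annotated. Where a peak reached several 5' ends, the pair taken was that with its midpoint nearest the summit. That choice favours central positions by construction. With 1 outermost 5' end per gene, 73.8% of summits fell between the 5' ends.

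**Figure D4:**
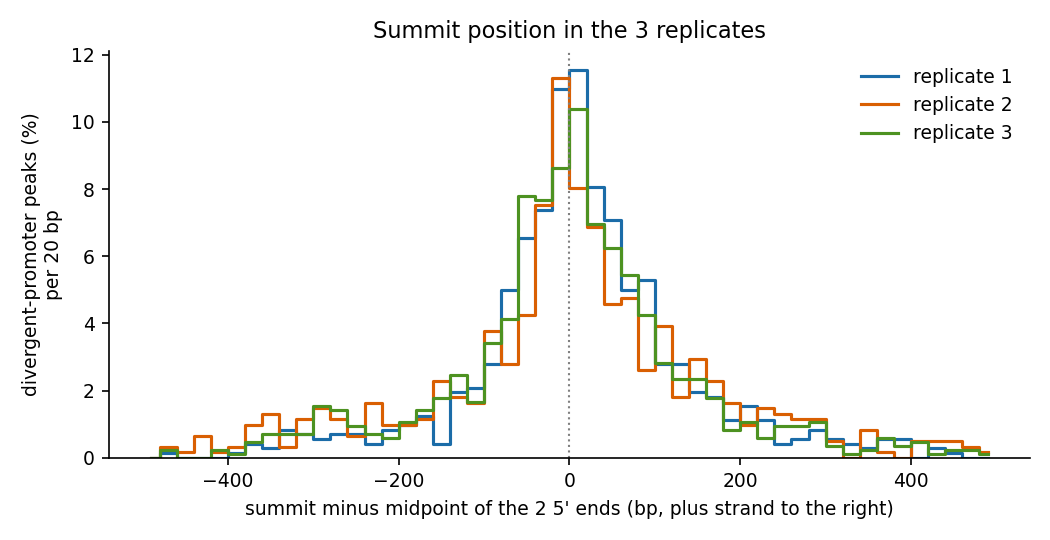
Position of the summit relative to the midpoint of the nearest head-to-head 5' ends (x axis, bp) as a share of each replicate's divergent-promoter peaks in bins of 20 bp (y axis, percent). The pair taken is that with its midpoint nearest the summit, which favours central positions by construction. The 3 replicates peak around 0, with between 39.2 and 44.6% of summits within 50 bp of the midpoint.

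Of the members, 706 had a value in all replicates, and the range of their 3 summits had a median of 59 bp and a 90th percentile of 162.5 bp. For 598 of these the 5' ends were at least 200 bp apart, and the summit was on the same side of the midpoint in all 3 replicates in 390 (65.2%). Each replicate's peak had to contain the summit of the optimal peak, which limits both measures by construction. Measured from the nearest 5' end reached by the peak, 78.0% ± 5.11 of summits were upstream, by a median of 79, 43 and 64 bp. At single promoters 83.5% ± 6.45 were upstream, by a median of 131, 77.5 and 86 bp. These distances cannot be compared between the classes, since a member that reaches both genes is measured from the nearer of 2 opposed 5' ends, which limits its distance by construction.

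Few members had a Pol III gene near, and the rule itself left out peaks that reached one. The median distance from a member's summit to the nearest tRNA, U6, U6atac, 7SK or RNaseMRP 5' end was 345616 bp. A 5' end of that kind lay within 1000 bp of 1 member and within 5000 bp of 7. The closest was an arginine tRNA gene 794 bp from CG9003/CG34228, of rank 938. Distances to Pol III genes were not measured for other peaks or promoters, so these counts do not show how members differ from those. A 5' end of a non-coding RNA gene or pseudogene lay under or within 100 bp of 8 members (1.06%). An example is that of the snoRNA gene Me28S-A774b at Adk2/RpS12.

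The letters of the internal Pol III promoter were no more frequent at members than at promoters in general. Within 150 bp of the summit, the B box (GTTCGANNC) was found at 2.11% of members, 4.14% of single-promoter peaks and 52.5% of Pol III peaks. Around all 19275 protein-coding 5' ends in windows of the same length it was found at 3.18%. The A box (TGGCNNAGT) was found at 4.09% of members, 4.58% of single-promoter peaks, 12.3% of Pol III peaks and 4.36% of all 5' ends. In the replicates' own peaks the B box stood at 2.36, 2.62 and 2.24% at divergent and 3.30, 5.64 and 4.71% at single promoters. For the A box the shares were 3.48, 3.44 and 3.42% against 3.93, 4.60 and 4.71%. Both were lower at divergent promoters in each replicate, while the intervals of the optimal peaks overlapped. All motifs were searched on both strands with N as any base, and a match is a description of the letters.

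Elements of Pol II promoters were compared between members and single-promoter peaks. A window at a member can hold the promoters of both genes of a pair, since 64.8% of members reached both. Windows at single promoters and at single 5' ends are unlike it in this, and the part of that in the motif shares was not tested. DRE was found at 15.7% of members (interval 13.2 to 18.5%), 8.12% of single-promoter peaks (6.18 to 10.4%) and 7.09% of all 5' ends. In the replicates' own peaks it was 14.6, 13.4 and 14.5% at divergent and 6.45, 5.49 and 9.15% at single promoters. The short GAGA element (GAGAG), bound by the GAGA factor, was found at 22.4% of members, 41.7% of single-promoter peaks and 33.6% of all 5' ends. Its shares in the replicates were 22.1, 25.9 and 20.7% against 37.9, 45.1 and 36.6%. For both elements the classes did not overlap across replicates, and no test was run on motif shares. Core motif 1 was found at 8.31% of members (interval 6.45 to 10.5%) and 5.91% of single-promoter peaks (4.25 to 7.96%), the E-box at 25.6 and 23.6%, and the TATA box at 46.3 and 35.5%. Within each replicate's own peaks, each of these elements was found more often at divergent than at single promoters. Across replicates the ranges of the classes overlapped for core motif 1 and the TATA box and not for the E-box. Within 75 bp of the summit core motif 1 (3.43 against 3.69%) and the E-box (12.5 against 13.3%) were not higher at members, with widely overlapping intervals. DRE (8.05 against 4.73%), the TATA box (27.3 against 19.5%) and GAGAG (10.3 against 19.4%) kept their direction there. The intervals of DRE overlapped slightly.

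Head-to-head pairs without an optimal peak had much the same letters. Around the midpoint of 1879 such pairs, DRE was found at 13.0%, beside 14.2% around the midpoint of the 788 pairs with a peak. GAGAG stood at 21.4% and 22.8%, TATAAA at 51.9% and 51.4%, and core motif 1 at 8.04% and 6.98%. The E-box was found at 17.7% without (interval 16.0 to 19.5%) and 24.0% with a peak (21.0 to 27.1%), and within 75 bp of the midpoint at 9.95% and 9.52%, so that difference was seen in the wider window only. Of the 151 members of highest rank 31.8% held an E-box, and in the following 4 groups of about that size 21.7 to 26.5%. The median GC content was 36.9% at members, 39.5% at single-promoter peaks, 34.6% at the midpoint of pairs without a peak, 35.5% at that of pairs with a peak and 41.5% around all 5' ends, and its part in the motif shares was not tested.

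Genes of the cytoplasmic ribosome were reached most often. Among 14 lists of genes chosen by symbol, 39 of 53 divergent cytoplasmic ribosomal protein genes (73.6%, interval 59.7 to 84.7%) had an optimal peak, beside 25.9% of all divergent genes. In the replicates it was 58.5, 77.4 and 75.5%, with replicate 1 lowest. Of those that were not divergent, 16 of 35 (45.7%) had one, and in the replicates 40.0, 42.9 and 48.6%. The highest of these peaks lay at RpS27, which shares its promoter with the nuclear pore gene Nup37, and at RpL7 with Ripalpha, at 2.32, 5.01 and 4.82. They were followed by RpL34b with CG8132 (2.89 ± 0.289) and RpL14 with Nelf-E, a subunit of a factor that pauses Pol II (2.58 ± 0.531). Replicate 1 was the lowest in all 4.

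The other translation lists lay nearer to all divergent genes. Of 58 divergent genes of the mitochondrial ribosome 20 (34.5%) had a peak, against 1 of 15 that were not divergent. Their highest were mRpS10 and mRpL41, already given, then mRpL23 (3.93 ± 1.11) and mRpL24 (1.62 ± 0.858). Of 24 aminoacyl-tRNA synthetase genes, whose enzymes load tRNA, 9 (37.5%, interval 18.8 to 59.4%) had one, against 1 of 11 that were not divergent, led by SerRS (2.44 ± 0.495), GluProRS (1.41 ± 0.430), ThrRS (1.12 ± 0.158) and IleRS (1.08 ± 0.320). Of 29 translation factor genes 11 (37.9%) had one, against 7 of 31 (22.6%, interval 9.59 to 41.1%) that were not divergent, among them eIF3c (2.16 ± 0.446), eEF5 (1.38 ± 0.558) and eIF3h (1.17 ± 0.341). The eIF4EHP peak had 1.82 in replicate 2 and 2.27 in replicate 3. In replicate 1 no peak contained its summit, although a strongest peak overlapped it, and at the summit of a second optimal peak of that pair replicate 1 had 3.40. Of 27 genes of tRNA and rRNA modification 10 had one, with an exact interval of 19.4 to 57.6%, and of those that were not divergent 2 of 6 (33.3%, interval 4.33 to 77.7%). The divergent ones were led by Tcs5, then Elp5, of the Elongator complex (3.22 ± 0.297), Trmt6, of a tRNA methyltransferase (2.19 ± 0.468), and Fib, the methyltransferase fibrillarin (2.16 ± 0.878).

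Genes of the transcription machineries were reached at similar shares. Of 14 divergent genes of the Pol III machinery 5 (35.7%, interval 12.8 to 64.9%) had a peak, and of 6 that were not divergent 0 (upper limit 45.9%). Besides Bdp1 these included Brf, its partner in TFIIIB, with 2.27, 2.19 and 1.24 (1.90 ± 0.571), and the Pol III subunit gene Polr3E (0.880 ± 0.514), below the median optimal peak on average. Of 34 genes for Pol I and Pol II subunits and general factors 11 (32.4%) had one, against 1 of 16 that were not divergent, headed by Ssl1, Polr2H (2.11 ± 0.356), Polr2J (1.61 ± 0.630) and Polr2B (1.61 ± 0.361).

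Of 59 divergent genes of vesicle sorting and autophagy 22 (37.3%) had a peak, against 1 of 28 that were not divergent. They were headed by CHMP2B, Vps50 (1.79 ± 0.373), Sec61alpha (1.56 ± 0.138) and Atg17 (1.53 ± 0.429). The list was made by symbol, and not every gene on it, Sec61alpha among them, acts in vesicle sorting or autophagy. Chaperone genes stood at 5 of 18 (27.8%), with Hsp83 highest (2.30 ± 0.689), then Hsc70-5 (1.41 ± 0.138), Hsc70-4 (1.09 ± 0.202) and Droj2 (0.826 ± 0.384). Proteasome genes stood at 7 of 26 (26.9%), headed by Rpn5 (1.84 ± 0.485), Rpn3 (1.26 ± 0.102), Rpn6 (1.05 ± 0.369) and Rpn8 (0.743 ± 0.271). Oxidative phosphorylation genes stood at 12 of 46 (26.1%), headed by ND-MWFE (1.94 ± 0.0849), COX5A (1.47 ± 0.196), ND-51 (1.30 ± 0.263) and ND-24 (1.29 ± 0.305). The last 3 lists were close to the 25.9% of all divergent genes. Of their genes that were not divergent, 2 of 19, 1 of 22 and 5 of 42 had a peak, in the same order.

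Nuclear pore genes, with 4 of 19 (21.1%), and spliceosome genes, with 6 of 33 (18.2%), had peaks at lower shares, within the counting error of so few genes, and 0 of 4 genes that were not divergent had one in either list (upper limit 60.2% each). After Nup37 the nuclear pore genes were Nup98-96 (1.63 ± 0.146), Nup160 (1.41 ± 0.234) and Nup205 (0.713 ± 0.230). The highest spliceosome genes were SF2, an SR protein (1.20 ± 0.468), Sf3b6 (1.08 ± 0.359), Sf3a2 (0.996 ± 0.661) and Sf3b1 (0.969 ± 0.186). Of 87 divergent histone genes only the variant His2Av, head to head with ball, had a peak (1.87 ± 0.131). The 84 head-to-head 5' ends of the replication-dependent histone repeats, on chr2L:21419943-21538228, had no peak even in the relaxed lists of any replicate. Those repeats are near-identical copies, and how the authors treated reads that map to several places is not given, so these values do not show that binding was absent.

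**Figure D5:**
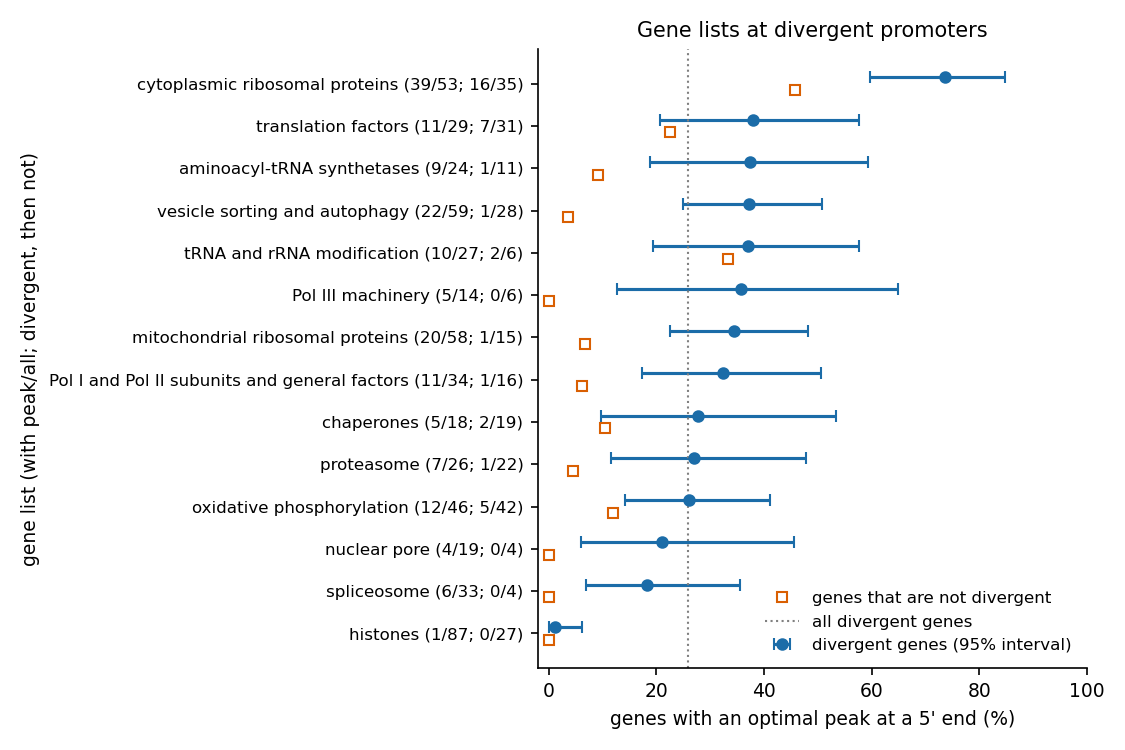
Share of genes with an optimal peak (x axis, percent) for 14 gene lists (y axis, with counts of genes with a peak over all genes, divergent first). Circles are divergent genes with 95% exact intervals, open squares are genes that are not divergent and the dotted line is all divergent genes at 25.9%; cytoplasmic ribosomal protein genes lie highest at 73.6%.

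Together, 158 members (20.8%) reached a gene of the 14 lists, and 108 reached only genes known by a CG number. List genes stood on both sides in 7. The matching shares over all head-to-head pairs were not counted, so these 3 counts do not show how members differ from other pairs. The highest members with list genes on both sides were Tcs5/CHMP2B and RpS27/Nup37, followed by Cog3/Sec5, of the Golgi-tethering and exocyst complexes (1.20 ± 0.378).

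Pairs on the X chromosome had peaks less often than autosomal pairs in each replicate. An optimal peak reached 87 of 403 X-linked pairs (21.6%, interval 17.7 to 25.9%), and between 26.9% (2R, interval 23.2 to 30.8%) and 35.4% (3R, 31.8 to 39.1%) of pairs on the large autosomal arms. The intervals of X and 2R overlap, and in replicate 2 they stood at 19.6 and 21.0%. On chromosome 4 it reached 0 of 11 pairs (upper limit 28.5%). In the replicates X-linked pairs stood at 18.4, 19.6 and 24.6% and autosomal pairs at 29.7, 24.2 and 33.9%, a difference of 8.44 ± 3.47 percentage points, positive in 3 of 3 (exact two-sided sign-flip permutation test, p = 0.25, the smallest possible). Genes that were not divergent stood at 6.37, 6.44 and 7.78% on the X and at 6.18, 6.46 and 7.18% on the autosomes. This comparison was chosen after its values were seen.

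Relaxed peaks were also counted at pairs below the optimal list. Of the 1879 pairs without an optimal peak, 470 had a peak at a 5' end in the relaxed lists of all 3 replicates and 481 in none. The relaxed lists mix peaks with background. Of single 5' ends without an optimal peak, 672 of 4713 divergent ones (14.3%, interval 13.3 to 15.3%) had a relaxed peak in all 3 replicates, and 663 of 12642 others (5.24%, 4.86 to 5.65%). At the edge of the distance limit, 17 members with 5' ends 901 to 1000 bp apart had a median relative signal of 0.921, 0.882 and 1.17. The 15 single-promoter peaks with an opposite 5' end 1001 to 1100 bp upstream had 0.690, 0.788 and 0.844.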

How the data were processed

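Per the labels, ChIP-seq of Bdp1-GFP was done on whole embryos in 3 biological replicates, on sonicated chromatin of 200 to 800 bp. The authors deposited peak lists on 2 builds, of which the dm6 lists were used. For each replicate there is a relaxed list of 30000 peaks and background, called with a control alignment, and from all replicates the optimal list that passed the irreproducible discovery rate (IDR) procedure, per the text deposited with the files. Which aligner, peak caller and IDR threshold were used is not given in the sources used here. Each peak's signal was taken as the authors deposited it. No source states its scale across lists, and comparisons were therefore made within a replicate, as ratios to the median of the optimal peaks there. Per-sample columns with no matching sample numbered 0.

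Genes came from Ensembl release 115 (BDGP 6.54) and sequence from the RefSeq assembly of the same build, where 13966 of 13968 protein-coding genes had identical coordinates. Coordinates are 1-based. For replicate shares, the 3206 strongest relaxed peaks of each were used, as many as in the optimal list. Differences between classes were tested with an exact two-sided sign-flip permutation test over the replicates. P-values refer to these 3 samples only. That test gives its smallest p, 0.25, whenever all 3 differences share a sign, whatever their spread. The scripts were tested on simulated peaks and used Python 3.11.15, NumPy 2.4.6, SciPy 1.17.1 and matplotlib 3.10.9.

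The members, gene lists and tests were chosen with earlier results of these data known. Named were the 12 members of highest mean percentile rank, the 4 highest of each list, the 4 highest pairs with separate peaks and the 3 members of lowest pooled signal. Sequences are those of the 7 highest members not on 2R with 50 to 300 bp between outermost 5' ends and the summit inside. A tRNA gene and a snoRNA gene near members, and Cog3/Sec5, were named after their values were seen. Alternatives were other windows, distances, overlap rules and numbers of peaks, 1 outermost 5' end per gene, ranks, a motif window of 75 bp and each replicate left out. The dm3 lists were not used here.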

Additional observations from a re-analysis of the deposited data

How the results depend on the processing

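The differences in occupancy kept their direction under all 11 alternatives each, one of which, genes with 1 annotated 5' end, was chosen after seeing the data. They ranged over 16.5 to 20.3 percentage points against other genes and 14.9 to 18.2 against compact tandem genes when each replicate was left out, and fell to 8.16 and 6.67 with the summit inside the window and to 10.9 and 10.1 with the 1603 strongest peaks. The log2 signal difference was 0.04 to 0.17 with each replicate left out and near 0 with the 1603 strongest peaks (0.0064 ± 0.089, exact permutation p = 1). It was positive in all 3 replicates with 5' ends up to 250 bp apart (0.13 ± 0.017) and with the summit inside the window (0.17 ± 0.10), each with exact permutation p = 0.25, the smallest possible. Leaving out replicates gave 84.8 to 89.8% of summits between the 5' ends and 65.0 to 71.3% of reached pairs under 1 peak. The number of members fell to 281 with 5' ends up to 250 bp apart, to 369 with the 1603 strongest peaks and to 427 with a strongest peak required in all 3 replicates, each of which admits fewer peaks by construction. Summits between the 5' ends stood at 62.4% with 5' ends up to 250 bp apart, 79.1% with the summit inside the window and 73.8% with 1 outermost 5' end per gene. Pairs under 1 peak moved to 60.1% with windows of 50 bp, 81.6% with 250 bp, 82.8% with 5' ends up to 500 bp apart, 94.2% up to 250 bp and 16.6% with the summit inside the window. Within 75 bp of the summit the motif shares of members fell to 8.05% for DRE, 3.43% for core motif 1, 12.5% for the E-box, 27.3% for the TATA box, 10.3% for GAGA and 2.11% for the A box, in windows shorter by construction.

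The optimal list could not be remade without a replicate, so no such count of members is given. Differences between classes were taken within each replicate, and with all samples in 1 group there were no groups of samples to pair. Depth is unknown, 3 replicates cannot give p below 0.25, and peaks mostly of 1 width limit how finely both sides of a pair can be told apart.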
